A study of Homo sapiens with 18 samples.

Results

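SCC25 cells, a head and neck squamous cell carcinoma (HNSCC) line, were compared after 5 days of daily cetuximab at 100 nM and after 5 days of PBS (untreated controls) by the assay for transposase-accessible chromatin with sequencing (ATAC-seq). The comparison used the 3 cetuximab and the 3 PBS libraries of SCC25, which are 6 of the 18 samples of the series, and the other samples are the same treatments of the HNSCC lines SCC1 and SCC6. Both arms shared the genotype of the line, the medium and the serum, and the line was grown alone, as a model without stroma or immune cells. Chromatin accessibility was given as a signal per region, 115087 regions in all, and 86315 of them were tested in SCC25 after the 25% with the lowest mean signal over its 6 libraries were left out. With cetuximab the signal fell at 237 regions and rose at 35, and as a group the regions away from promoters that hold the recognition motif of AP-1 stood lower, relative to the other regions, in all 3 cetuximab libraries than in any PBS library.

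In ATAC-seq, the transposase Tn5 cuts and tags DNA where nucleosomes leave it exposed, so that promoters, enhancers and insulators give more reads than closed chromatin. Cetuximab is a monoclonal antibody that blocks the epidermal growth factor receptor (EGFR), the receptor tyrosine kinase on which many squamous carcinomas depend for growth signals. Downstream of EGFR, the RAS and ERK cascade induces and phosphorylates FOS, JUN and related proteins, which pair as the transcription factor AP-1 and occupy many enhancers of epithelial cells. TEAD factors, the DNA-binding partners of the Hippo effectors YAP and TAZ, share many of these enhancers with AP-1. A signal from a bulk sample cannot tell fewer cells with an open region from less opening per cell.

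The 6 libraries differed in depth. Reads in the 115087 regions, recovered from the steps of the deposited values, were between 2513828 and 7385401 with cetuximab and between 5509462 and 13408698 with PBS (exact permutation test, two-sided, p = 0.3). The peak lists held between 18642 and 52665 peaks with cetuximab and between 49094 and 81963 with PBS (exact permutation test, p = 0.2). The share of reads that fell in regions without a peak in SCC25 was 5.32% to 5.97% with cetuximab and 4.39% to 4.42% with PBS. The groups did not overlap. These regions were chosen by the peak lists of the same 6 libraries, and the PBS lists held more peaks on average. Leaving out more regions with a PBS peak can lower the PBS share, so the share is not independent of the groups. Pairs of cetuximab libraries correlated across regions at 0.845 to 0.896 and pairs of PBS libraries at 0.927 to 0.949, and no pair agreed within counting noise. All 12 genes of a squamous epithelium marker list, such as KRT5 and TP63, had an accessible promoter, with a median promoter signal of 64.7. Of 10 leukocyte genes 5 had one, with a median promoter signal of 58.1, and of 10 fibroblast and endothelium genes 2 had one, with a median of 85.4. Nothing in the labels says whether replicates were separate cultures, so p-values measure only the spread between these samples.

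The DNA under the changed regions is shown first, because the share of regions with these motifs differed between those that fell and those that rose, although many regions in either direction hold neither motif. Each run is the central 200 bases of a region, the window that was searched for motifs, on the forward strand of the hg19 (GRCh37) reference. Capitals mark TGANTCA, the AP-1 motif, and CATTCC, the TEAD motif, or its reverse complement GGAATG. The first 4 hold an AP-1 motif and belong to the 12 named regions that fell.
ASTN2 intron (chr9:119915400-119915599): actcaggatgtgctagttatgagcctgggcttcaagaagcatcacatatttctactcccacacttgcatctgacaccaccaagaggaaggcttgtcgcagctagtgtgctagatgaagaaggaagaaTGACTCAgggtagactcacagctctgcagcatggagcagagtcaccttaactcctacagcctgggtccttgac
intergenic, 143 kb from the MRPS30 start (chr5:44665152-44665351): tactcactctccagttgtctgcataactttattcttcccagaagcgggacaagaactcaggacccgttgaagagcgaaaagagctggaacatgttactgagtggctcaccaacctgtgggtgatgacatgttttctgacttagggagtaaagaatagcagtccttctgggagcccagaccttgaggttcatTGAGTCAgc
non-coding gene near ZNF474 (chr5:121457821-121458020): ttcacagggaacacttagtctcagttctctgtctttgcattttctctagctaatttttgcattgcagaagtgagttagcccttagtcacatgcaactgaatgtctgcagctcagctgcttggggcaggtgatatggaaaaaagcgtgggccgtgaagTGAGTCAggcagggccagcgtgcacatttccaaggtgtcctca
MACROD2 intron (chr20:16001746-16001945): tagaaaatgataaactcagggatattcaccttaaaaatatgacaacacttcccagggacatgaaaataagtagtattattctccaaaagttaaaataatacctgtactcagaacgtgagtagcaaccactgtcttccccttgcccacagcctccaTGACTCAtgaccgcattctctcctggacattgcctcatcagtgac
The next 3 hold a TEAD motif and belong to the 12 named regions that rose.
intergenic, 566 kb from the ADGRL4 start (chr1:80314073-80314272): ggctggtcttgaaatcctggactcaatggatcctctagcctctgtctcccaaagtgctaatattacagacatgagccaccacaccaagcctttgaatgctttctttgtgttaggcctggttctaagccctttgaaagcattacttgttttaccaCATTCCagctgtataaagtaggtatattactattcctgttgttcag
intergenic near IL7R (chr5:35890736-35890935): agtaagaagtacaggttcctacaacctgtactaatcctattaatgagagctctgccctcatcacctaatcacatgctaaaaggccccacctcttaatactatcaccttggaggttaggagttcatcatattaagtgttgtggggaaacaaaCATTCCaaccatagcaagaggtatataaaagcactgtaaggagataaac
intergenic, 478 kb from the BUD13 start (chr11:116165339-116165538): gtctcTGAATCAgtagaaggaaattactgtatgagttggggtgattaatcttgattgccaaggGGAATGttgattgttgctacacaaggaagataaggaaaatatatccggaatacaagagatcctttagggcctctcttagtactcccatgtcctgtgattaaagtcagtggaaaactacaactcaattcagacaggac
The last pair had the lowest adjusted p among regions that fell and that rose, and neither motif is in the window.
ABCA1 coding exon (chr9:107594010-107594209): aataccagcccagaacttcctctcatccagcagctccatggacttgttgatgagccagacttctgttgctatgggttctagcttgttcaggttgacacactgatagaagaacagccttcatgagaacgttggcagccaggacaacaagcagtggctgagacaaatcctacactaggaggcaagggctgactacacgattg
CD36 intron (chr7:80193323-80193522): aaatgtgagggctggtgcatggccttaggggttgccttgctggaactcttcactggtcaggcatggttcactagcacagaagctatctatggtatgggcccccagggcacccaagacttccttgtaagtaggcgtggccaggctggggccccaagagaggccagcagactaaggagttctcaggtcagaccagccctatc

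With the scaling of the deposited values, few single regions were called in SCC25. With limma on log2(signal + 1) and Benjamini-Hochberg adjustment over the 86315 tested regions, 272 regions (0.315%) had an adjusted p under 0.05, of which 237 fell (0.275%) and 35 rose (0.0405%). The regions that fell had a median log2 change of -0.92, between -2.54 and -0.40, and a median signal of 58.7 with cetuximab and 113 with PBS. Those that rose had a median log2 change of 1.24, between 0.50 and 2.70, and a median signal of 70.1 with cetuximab and 30.6 with PBS. The 3 cetuximab libraries did not overlap the 3 PBS libraries at any of the 272, while 18.4% of all tested regions had no overlap. The 272 were chosen by a test on these same values, so their separation is no further evidence. The calls rested on all 3 PBS libraries. Without PBS replicate 1 there were 3 higher and 5 lower calls, without PBS replicate 2 there were 1 and 5, and without PBS replicate 3 limma made 0 and 0 with 7826 regions at an unadjusted p under 0.05. Centring each library on its median gave 55 higher and 97 lower, and edgeR on the recovered reads gave 377 higher and 591 lower, among them all 272. The lower calls were 79 with reads thinned to the same number per library, 40 with each library's GC trend removed and 10 with all 17 libraries of the 3 lines in 1 fit, where the higher calls were 34, 36 and 31. The number also depended on the scaling. With each library scaled to its reads in regions without an SCC25 peak, limma called 106 regions higher and 13488 lower. The median change over all regions was then -0.372. Those regions were chosen by the peaks of these same libraries, which can move this scaling toward falls.

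**Figure D1:**
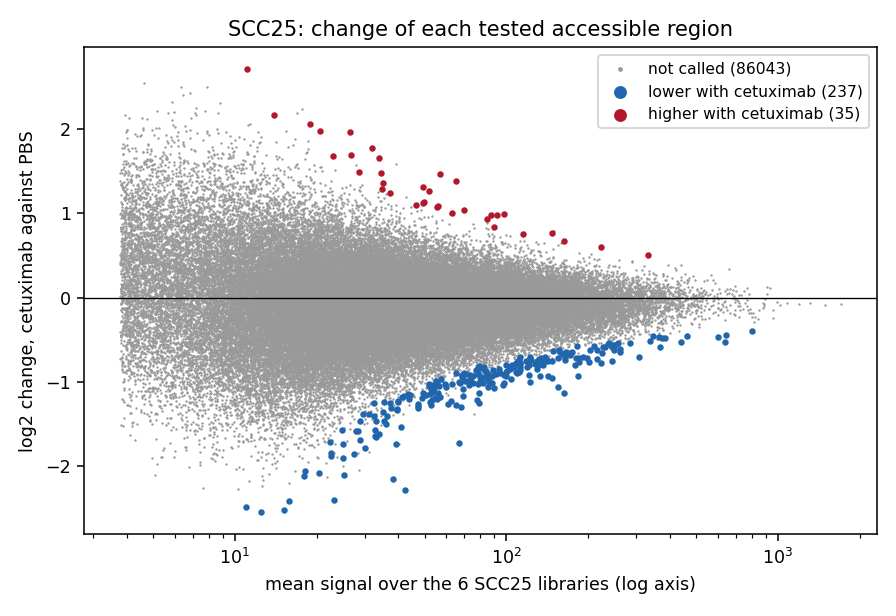
Each point is 1 of the 86315 tested regions, with the mean signal over the 6 SCC25 libraries on a log x axis and the log2 change with cetuximab against PBS on the y axis. The 237 regions called lower (blue) are more numerous than the 35 called higher (red), and the size of change that was called shrinks as the signal grows.

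The regions that fell lay mostly away from genes' starts. Of the 237, 92 were in introns, 89 were intergenic, 42 were in non-coding genes and 4 (1.69%) were promoters, here regions within 1 kb of a protein-coding start site, while promoters were 16.8% of all tested regions. Their median width was 430 bases and their median GC content 43.6%, against 309 bases and 48.5% for all tested regions. A peak was present in all 3 PBS libraries at 222 of them and in all 3 cetuximab libraries at 76. At 44 there was a peak in every PBS library and in no cetuximab library. Over all 86315 tested regions these counts were 39693, 13837 and 3673, and 0 had the reverse of the last pattern. Of the 35 that rose, 12 were in introns, 12 were intergenic and 4 (11.4%) were promoters. No peak was called in any of the 6 libraries at 7 of them, and at 15807 of all 86315 tested regions. By position, 148 genes could be linked to a region that fell and 31 to one that rose, a link being a gene body that holds the region or else the nearest start within 100 kb, and 80 regions that fell had no such gene.

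The region with the smallest adjusted p lay over coding exon 13 of ABCA1, the transporter that exports cholesterol from cells, at chr9:107593943-107594277. Its signal was 28.1, 30.0 and 33.6 with cetuximab, and 105, 97.4 and 107 with PBS. All PBS libraries were well above the cetuximab libraries, and the peak was called in every PBS library and in no cetuximab library (log2 change -1.72, SE 0.21, adjusted p = 0.000525). The region of the SCN1A intron at chr2:166887581-166887924 was next, and SCN1A encodes a voltage-gated sodium channel subunit. It read 8.44, 16.9 and 17.7 with cetuximab, and 78.4, 72.8 and 60.2 with PBS, with a peak in the 3 PBS libraries alone (log2 change -2.27, SE 0.30, adjusted p = 0.00116). An intron of PLA2G4A, which encodes the phospholipase that releases arachidonic acid from membranes, read 5.62, 5.86 and 8.86 with cetuximab, and 37.7, 39.7 and 40.7 with PBS at chr1:186857563-186857812. The cetuximab libraries there were close to the lowest signals tested, and the fall was the largest among these regions (log2 change -2.40, SE 0.38, adjusted p = 0.0075).

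Chromosome 9 held 29 of the 237 regions that fell, which is 0.733% of its 3955 tested regions against 0.275% over all. Its median log2 change was -0.09 against -0.08 over all. Its mean change relative to all regions was -0.012, with libraries that overlapped. Its median signal was 42.5 against 33.8 over all. In 5 equal bins of regions by signal, lower calls were 0.0174% of the weakest and 0.794% of the strongest. The part of signal in the chromosome 9 share was not tested. Several of the 29 lay around PAPPA and ASTN2. PAPPA encodes a secreted protease that cleaves insulin-like growth factor binding proteins, and the intergenic region 79.6 kb from its start at chr9:118836050-118836423 read 11.2, 10.4 and 19.5 with cetuximab, and 57.3, 57.7 and 73.0 with PBS (log2 change -2.15, SE 0.30, adjusted p = 0.00185). A second region nearer to PAPPA, at chr9:118862884-118863423, had far more signal and a smaller fall, with 209.5, 273 and 216 with cetuximab, and 344, 326 and 336 with PBS (log2 change -0.53, SE 0.12, adjusted p = 0.042). ASTN2, which encodes a neuronal membrane protein of the astrotactin family, had 3 regions that fell of 53 tested regions linked to it. The intron region at chr9:119915313-119915686 read 87.2, 117 and 95.6 with cetuximab, and 219, 187 and 219.7 with PBS (log2 change -1.06, SE 0.15, adjusted p = 0.00205). A second intron region at chr9:119941063-119941450 read 36.6, 29.3 and 46.0 with cetuximab, and 94.2, 72.8 and 96.7 with PBS (log2 change -1.23, SE 0.22, adjusted p = 0.0208). The last, outside the gene body at chr9:119183322-119183499, was weak, with 2.81, 12.4 and 5.31 with cetuximab, and 27.5, 23.8 and 35.6 with PBS (log2 change -2.11, SE 0.47, adjusted p = 0.0441). In each of these 5 regions the highest cetuximab library lay below the lowest PBS library, as at every region called lower.

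Another 7 genes had 2 regions each that fell, PAPPA among them, and no gene had 2 that rose. These genes had between 4 (PRRX1) and 64 (MACROD2) tested regions linked to them. In MACROD2, which encodes a hydrolase that removes ADP-ribose from proteins, the intron region at chr20:16001556-16002136 read 75.9, 84.7 and 83.2 with cetuximab, and 158, 150.0 and 184 with PBS (log2 change -0.999, SE 0.16, adjusted p = 0.0075), and the second at chr20:15136566-15136826 had a log2 change of -1.56. In AGO2, the Argonaute protein that cuts the targets of small RNAs, the intron region at chr8:141607099-141607537 read 122, 160.2 and 99.2 with cetuximab, and 246, 238 and 234 with PBS (log2 change -0.93, SE 0.15, adjusted p = 0.0075), and the other changed by -0.73. Near F3, which encodes tissue factor, the starter of blood coagulation, 2 regions changed by -0.85 and -0.40. One of them, at chr1:94992809-94994264, was among the most accessible regions to fall, with 681, 791 and 616 with cetuximab, and 954, 963 and 823 with PBS and groups that stayed apart by a small margin. Over all 20 regions linked to F3 the median log2 change was 0.03, and 10 of them were negative. Near PRRX1, a homeobox factor active in mesenchymal cells, the log2 changes were -0.86 and -0.55. Near RORB, an orphan nuclear receptor, they were -1.07 and -1.15, and near LRRC8C, a subunit of volume-regulated anion channels, -0.65 and -0.66.

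The other regions that fell with the smallest adjusted p were at a distance from any coding start. A region in the long non-coding RNA gene LINC01605, at chr8:37308546-37308980, read 80.1, 104 and 126 with cetuximab, and 236, 218 and 217 with PBS (log2 change -1.13, SE 0.16, adjusted p = 0.00172). The intergenic region chr10:36758520-36758963, 656 kb from the start of ANKRD30A, read 38.0, 61.2 and 42.5 with cetuximab, and 110.0, 114 and 111 with PBS (log2 change -1.25, SE 0.20, adjusted p = 0.0075). The region in a non-coding gene 7.04 kb from the zinc-finger gene ZNF474 read 88.6, 116 and 95.6 with cetuximab, and 197, 177 and 207 with PBS at chr5:121457637-121458204 (log2 change -0.95, SE 0.15, adjusted p = 0.0075). The intergenic region chr5:44664702-44665801 was the most accessible of the 12, with 558, 524 and 487 with cetuximab, and 763, 714 and 773 with PBS and a small but clear fall (log2 change -0.52, SE 0.08, adjusted p = 0.0075). The intron of PLCH1, a phospholipase C, read 212, 229.9 and 260.3 with cetuximab, and 381, 431 and 340.2 with PBS at chr3:155134404-155135183 (log2 change -0.71, SE 0.12, adjusted p = 0.00773). All of these kept a peak in at least 2 cetuximab libraries.

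Of the regions that rose, the smallest adjusted p was in an intron of CD36, which encodes a scavenger receptor that takes up fatty acids and oxidised lipoproteins. At chr7:80193124-80193722 the signal was 75.9, 90.5 and 85.0 with cetuximab, and 38.8, 23.1 and 28.8 with PBS, every cetuximab library being well over the highest PBS library (log2 change 1.47, SE 0.23, adjusted p = 0.0075). An intergenic region 16.9 kb from IL7R, the receptor chain for interleukin-7, read 138, 130.3 and 101 with cetuximab, and 66.3, 63.5 and 54.3 with PBS at chr5:35890571-35891101, and its peak was called in all 6 libraries (log2 change 0.98, SE 0.18, adjusted p = 0.0238). A region 22.6 kb from CEMIP2, which encodes a cell-surface hyaluronidase, read 157, 122 and 113 with cetuximab, and 62.6, 75.7 and 56.8 with PBS at chr9:74296636-74297281 (log2 change 0.99, SE 0.18, adjusted p = 0.0223). A region 27.3 kb from TMCC3 read 32.3, 44.3 and 47.8 with cetuximab, and 10.9, 12.3 and 12.7 with PBS at chr12:95071633-95071924, with no peak in any PBS library (log2 change 1.70, SE 0.33, adjusted p = 0.0248). In the long non-coding RNA gene CASC15 the region at chr6:21946547-21947051 had no peak in any of the 6 libraries and read 49.2, 41.7 and 54.9 with cetuximab, and 10.6, 26.7 and 8.48 with PBS, and the PBS libraries there were spread over a wide range (log2 change 1.77, SE 0.35, adjusted p = 0.0284).

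The intron of ASTN1, the paralogue of ASTN2, rose, and read 204, 169 and 186 with cetuximab, and 102, 124 and 102 with PBS at chr1:176888569-176889117 (log2 change 0.76, SE 0.15, adjusted p = 0.0248). The intron of COL19A1, a collagen of basement membrane zones, read 107, 84.0 and 90.3 with cetuximab, and 55.0, 41.1 and 39.9 with PBS at chr6:70617861-70618363 (log2 change 1.04, SE 0.21, adjusted p = 0.0284). Near RBBP6, which encodes a ubiquitin ligase that binds RB1 and p53, the region chr16:24502118-24502484 read 71.7, 80.1 and 58.4 with cetuximab, and 36.2, 31.7 and 17.8 with PBS (log2 change 1.31, SE 0.26, adjusted p = 0.0284). The region near GJA3, a gap junction connexin, read 63.3, 71.6 and 83.2 with cetuximab, and 45.2, 20.9 and 27.1 with PBS at chr13:20701596-20702288 (log2 change 1.26, SE 0.26, adjusted p = 0.0318). The intergenic regions chr1:80313974-80314371 and chr11:116165136-116165741 had log2 changes of 1.65 and 1.48, with a peak in 1 cetuximab library and in no PBS library. DESeq2 gave an adjusted p under 0.05 to 29 of the 30 regions that rose and 164 of the 224 that fell among those it assigned one.

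**Figure D2:**
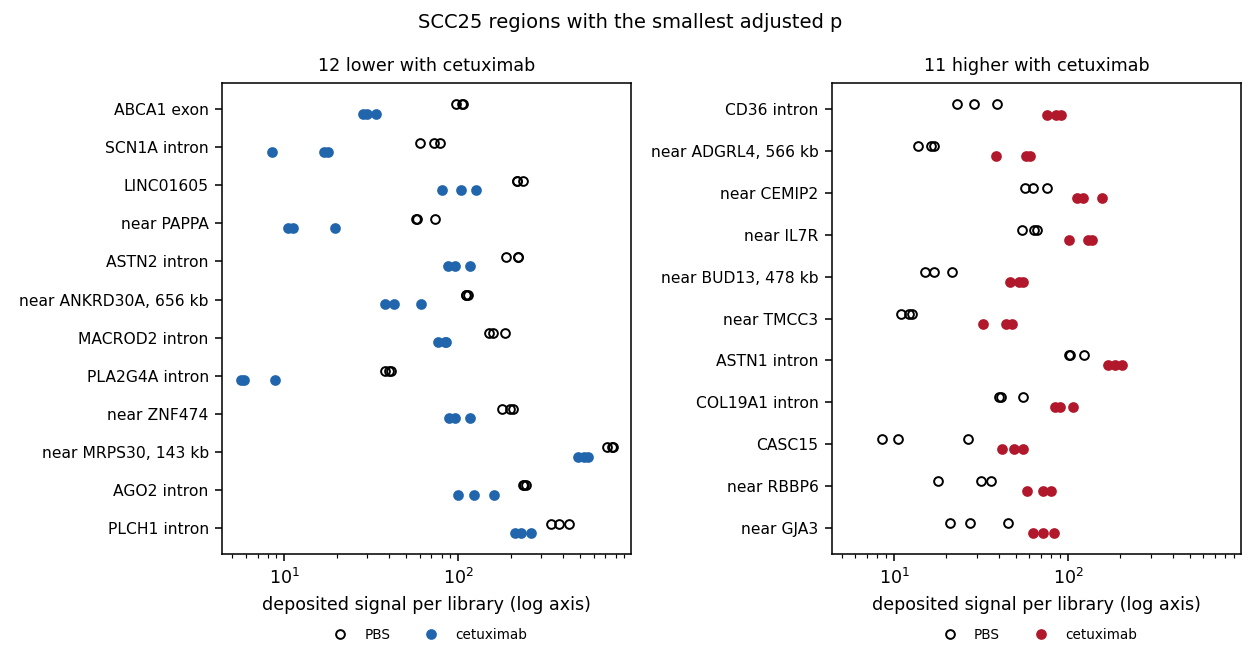
Deposited signal of each of the 6 SCC25 libraries on a log x axis, for the 12 regions that fell (left) and 11 of the 12 that rose (right) with the smallest adjusted p. Open circles are PBS and filled circles cetuximab libraries. The groups are apart in every row, as the choice of these regions required. Among those that fell, cetuximab signals run from 5.62 to 8.86 at the PLA2G4A intron up to 487 to 558 at an intergenic region.

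Among 14511 promoter regions 4 fell and 4 rose, a balance that depended on the scaling and the test. The higher and lower promoters numbered 17 and 1 with each library centred on its median, 29 and 7 with quantile normalisation, 107 and 20 with edgeR, 37 and 3 with DESeq2, and 7 and 1936 with libraries scaled to their reads outside SCC25 peaks. The promoter of MYEF2 read 25.3, 29.3 and 33.6 with cetuximab, and 59.9, 74.997 and 70.4 with PBS at chr15:48442098-48442445 (log2 change -1.19, SE 0.24, adjusted p = 0.0284). The promoter of GDE1, a glycerophosphodiester phosphodiesterase, read 18.3, 31.9 and 46.0 with cetuximab, and 78.8, 65.6 and 72.1 with PBS at chr16:19528794-19529067, with a peak in each PBS library and no cetuximab library (log2 change -1.23, SE 0.27, adjusted p = 0.0418). The region over the first exon of CDC14A, a phosphatase of the cell cycle and of cilia, read 74.5, 90.5 and 81.5 with cetuximab, and 153, 138 and 124 with PBS (log2 change -0.75, SE 0.17, adjusted p = 0.0434). The fourth, shared by VCPIP1, a deubiquitinase, and the C8orf44-SGK3 readthrough gene, read 263, 346 and 331 with cetuximab, and 460.1, 408 and 432 with PBS (log2 change -0.48, SE 0.11, adjusted p = 0.0493). Of those that rose, the promoter of NOL4L read 68.9, 63.2 and 72.6 with cetuximab, and 38.1, 29.6 and 25.4 with PBS (log2 change 1.13, SE 0.24, adjusted p = 0.0338), and that of FNBP1L, an adaptor of actin assembly at membranes, read 245, 270.3 and 289 with cetuximab, and 203, 168 and 161 with PBS (log2 change 0.60, SE 0.13, adjusted p = 0.0381). The ART4 promoter, of the Dombrock blood group antigen, read 54.8, 58.0 and 77.9 with cetuximab, and 30.1, 32.5 and 24.6 with PBS (log2 change 1.09, SE 0.25, adjusted p = 0.0453). The promoter of KLC1, a kinesin light chain, read 134, 98.3 and 115 with cetuximab, and 69.7, 73.6 and 50.05 with PBS (log2 change 0.84, SE 0.19, adjusted p = 0.049). The groups were separate at all 4 that rose, as at every called region. Without any 1 of the PBS libraries no promoter was called. The tested regions with an unadjusted p under 0.05 then numbered 7713, 7700 and 7826.

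Gene lists fixed for HNSCC and EGFR signalling held few called regions. Over all 86315 tested regions, 3.57% were higher and 9.64% lower at an unadjusted p under 0.05, the shares against which the counts at that level are to be read. Of the 95 regions linked to the EGFR family and its ligands 0 were called by limma, 3 were higher (3.16%) and 10 lower (10.5%) at an unadjusted p under 0.05, and their median log2 change was -0.19 against -0.07 for all linked regions. Within it, 7 of the 31 EGFR regions were lower at that level, while the EGFR promoter read 118, 134 and 131 with cetuximab, and 132, 110.3 and 111 with PBS, and the groups overlapped (log2 change 0.12, adjusted p = 0.79). ERBB3, the kinase-impaired partner of ERBB2, had a promoter signal of 104.0 ± 14.2 with cetuximab and 69.8 ± 11.5 with PBS (SD, n = 3 each, limma adjusted p = 0.176). Regions of the ligand genes BTC, EREG and AREG had median log2 changes of -0.68, -0.46 and -0.34 over 3, 3 and 4 regions, and 0 of them reached an unadjusted p under 0.05. Of 130 regions of ERK feedback and output genes 1 fell, 24.5 kb from DUSP5, which encodes a nuclear ERK phosphatase. It read 59.1, 84.0 and 90.3 with cetuximab, and 132, 139.9 and 135 with PBS (log2 change -0.82, SE 0.18, adjusted p = 0.0398). The promoters of DUSP6, SPRY2 and SPRY4, other brakes on ERK signalling, had log2 changes of -0.06, 0.22 and -0.11 with adjusted p between 0.505 and 0.884.

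Genes for the AP-1 proteins themselves had 66 linked regions with a median log2 change of 0.01, and 0 were called, with 3 higher and 3 lower at an unadjusted p under 0.05. The promoter of JUND, a JUN family member, had 178 ± 15.4 with cetuximab and 118 ± 9.82 with PBS (SD, n = 3 each), which missed the threshold (limma adjusted p = 0.074). FOSL1 had 139 ± 9.15 and 142 ± 23.6, and JUN 139 ± 24.0 and 141 ± 9.65, both within the spread. Of 139 regions of bypass receptor tyrosine kinases 0 were called, with 3 higher (2.16%) and 13 lower (9.35%) at an unadjusted p under 0.05 and a median of -0.15. The epithelial-mesenchymal transition list (141 regions), the TGF-beta pathway (178) and the squamous lineage factors (153) had 0 calls each, with 8 higher and 11 lower, 8 and 9, and 6 and 11 at that level (lower shares of 7.8%, 5.06% and 7.19%), and medians of -0.09, -0.04 and -0.03.

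Single regions of other lists were called. In the lipid and cholesterol list, 1 of 184 regions rose and 1 fell, the CD36 and ABCA1 regions above. The SCN1A region was the 1 call among 151 regions of sodium and potassium channels, and the IL7R region the 1 call among 103 of inflammatory genes. An intron region of DST, which anchors keratin filaments at hemidesmosomes, read 115, 155 and 168 with cetuximab, and 254, 228 and 226 with PBS at chr6:56803399-56803960 and was the 1 call of 156 integrin and laminin-332 list regions (log2 change -0.70, SE 0.14, adjusted p = 0.0307). Near HEY1, a transcriptional target of NOTCH, the region chr8:80745077-80745306 read 22.5, 27.4 and 8.86 with cetuximab, and 59.5, 51.9 and 45.0 with PBS (log2 change -1.50, SE 0.33, adjusted p = 0.0441), 1 of 119. Near DSG3, a desmosomal cadherin of the squamous epithelium, chr18:28999369-28999990 read 71.7, 104 and 88.6 with cetuximab, and 159, 119.7 and 183 with PBS (log2 change -0.80, SE 0.18, adjusted p = 0.0447), 1 of 138 in the keratin, desmosome and cornified envelope list. Shares of these lists, which are those with a call, lay between 0.641% and 1.09%, against 0.315% over all tested regions, and for such sizes that is 1 or 2 regions. The lists of DNA replication and mitosis (65 regions), G1 control and BCL2 (139), interferon-stimulated (50) and TEAD and Hippo target genes (134) had 0 calls, with 2 higher and 5 lower, 3 and 6, 1 and 7, and 5 and 8 at an unadjusted p under 0.05.

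The promoters of 9 genes picked from those that the study named, a list that is no independent evidence, were not called in SCC25 with the deposited scaling. For TFAP2A, a transcription factor of epithelial differentiation, the promoter read 346, 374 and 335 with cetuximab, and 405, 379 and 359 with PBS (limma adjusted p = 0.655), and the groups overlapped. For VIM, the mesenchymal filament protein, it read 121, 133 and 119 with cetuximab, and 153, 131 and 134 with PBS (adjusted p = 0.681). With libraries scaled to their reads outside SCC25 peaks, these 2 promoters were called lower by limma, TFAP2A with a log2 change of -0.41 (adjusted p = 0.00942) and VIM with -0.46 (adjusted p = 0.0371), where the median over all regions was -0.372. The receptor genes AXL, FGFR1, IGF1R, ERBB2 and TGFBR3, with VEGFA, had log2 changes between -0.10 and 0.09, with standard errors of 0.12 to 0.26. Of the 136 regions linked to the 9 genes, 6 were higher and 19 lower at an unadjusted p under 0.05 with a median of -0.10, and none passed the adjustment.

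Genes with 8 or more linked regions, 2572 in all, were also ranked by the median change of their regions, as a description. The lowest medians were those of PRSS23, a serine protease (-0.63 over 10 regions, 9 of them negative), SUB1 (-0.61), CEMIP, which encodes a hyaluronan-degrading protein (-0.60), the chromatin remodeller CHD2 (-0.58, 5 of 8 regions at an unadjusted p under 0.05) and SMIM2 (-0.57). The highest were those of DPP10 (0.59), CPXM2 (0.55), the mucin MUC16 (0.51), the macrophage growth factor CSF1 (0.41, 1 region called) and TFRC, the transferrin receptor (0.38 over 8 regions, 3 at an unadjusted p under 0.05). DPP10, CPXM2 and MUC16 had median signals of 14.1, 11.1 and 8.01, close to the lower limit of what was tested.

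Over whole groups of regions, promoters stood apart from the rest. The median log2 change was -0.08 over all tested regions, 0.02 over promoters, -0.13 over introns and -0.11 over intergenic regions. Mean log2 signal at promoters minus that at regions over 10 kb from any start was 1.28, 1.27 and 1.34 in the cetuximab libraries and 1.14, 1.16 and 1.19 in the PBS libraries, and the groups did not overlap. The difference was 0.133 (1.298 ± 0.034 against 1.165 ± 0.027, SD, n = 3 each, exact permutation test, two-sided, p = 0.1, the smallest that 3 against 3 allows). The change ran with GC content, and its median rose from -0.16 in the tenth of regions with the lowest GC content to 0.07 in that with the highest. Across regions, the rank correlation of GC content with a library's log2 signal, less the mean of the 6 libraries, was higher by 0.171 with cetuximab, but with no filter on low signal it was -0.184, in the other direction (exact permutation p = 0.3). With the trend of each library with GC content removed, the promoter difference was 0.019 (exact permutation p = 0.4), and with no filter on low signal it was 0.006 (exact permutation p = 1). Between chromosomes, the median ran from -0.16 on chromosomes 13 and 15 to 0.04 on chromosome 19 and 0.12 on chromosome 22. Chromosome 22 had 1177 tested regions, 0 calls by limma and 83 higher and 25 lower at an unadjusted p under 0.05. Over all tested regions 3.57% were higher and 9.64% lower at that level. Its mean change relative to all regions was 0.204 and 0.165 with the GC trend removed. Its mean log2 signal relative to all regions was -0.151 in cetuximab replicate 3, -0.401 and -0.371 in replicates 1 and 2, and -0.452 to -0.575 with PBS. The median signal there was 26.4 against 33.8 over all.

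Regions with an AP-1 motif had less signal with cetuximab as a group, and this difference kept its sign under every alternative it was computed for. The motif TGANTCA was present, on either strand, in the central 200 bases of 126 of the 237 regions that fell (53.2%), 4 of the 35 that rose (11.4%) and 32.6% of all tested regions, or 37.6% of those away from promoters. Away from promoters, mean log2 signal at the 26963 regions with the motif minus that at the 44841 without it was 0.121, 0.128 and 0.147 in the cetuximab libraries and 0.291, 0.298 and 0.321 in the PBS libraries. All PBS libraries lay above all cetuximab libraries, with a gap of the groups that was wider than the spread within either. The means were 0.132 ± 0.013 with cetuximab and 0.303 ± 0.016 with PBS (SD, n = 3 each), a difference of -0.171 on the log2 scale, which is a ratio of 0.888 (exact permutation test, two-sided, p = 0.1, the smallest possible). The difference was -0.156 with the GC trend removed and -0.183 with libraries thinned to the same number of reads, and leaving out each library in turn gave -0.162 to -0.179. It was present in each of 5 equal bins of regions by signal, from -0.256 in the weakest to -0.095 in the strongest.

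The values were lower where the window held more motifs, a difference that was not tested itself. Relative to all tested regions, the mean log2 change was -0.115 over 22738 regions away from promoters with 1 AP-1 motif and -0.198 over 4225 with 2 or more, against 0.043 over those with none. It was -0.136 where the middle base of the motif was C or G, the form FOS and JUN dimers prefer, and -0.099 where it was only A or T. Of regions with the motif 125 fell and 3 rose, of 44841 without it 108 fell and 28 rose. At promoters the motif was rare, in 1134 of 14511, and the relative change there was -0.020 with libraries that overlapped. For TEAD motifs the values were on the other side. CATTCC was in 12.2% of the regions that fell, 31.4% of those that rose and 18.4% of all tested, and the 9590 regions with TEAD but no AP-1 motif had a mean change of 0.117 relative to all regions. In each of the 3 cetuximab libraries this group stood higher than in every PBS library. Regions with both motifs had a relative change of -0.075 and those with AP-1 alone one of -0.141. The TEAD difference from regions with neither motif was mostly at weak regions, 0.166 in the lowest of the 5 signal bins and 0.022 in the highest.

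Other motifs were searched for as well. Relative changes away from promoters were -0.050 for p63 (6610 regions), -0.052 for the forkhead motif TGTTTAC (3792), -0.013 for the RUNX motif TGTGGTT (6129), -0.018 for the STAT motif TTCNNNGAA (4548) and -0.014 for CTCF (2968). With the GC trend removed they were, in the same order, -0.022, -0.035, 0.017, 0.010 and -0.017, so that RUNX and STAT changed sign. The CTCF motif was in 1 of the 237 regions that fell and in 3.83% of all tested. The CRE motif TGACGTCA, to which CREB factors bind, was in 153 regions away from promoters with a relative change of -0.075, and -0.089 with the GC trend removed, and in 253 promoters with 0.161 and 0.056. For the TFAP2 motif GCCNNNGGC the change was 0.037 and 0.021 with the GC trend removed. Promoters with the SP and KLF motif GGGCGGG, the ETS motif CCGGAAG or the NRF1 motif GCGCATGCG had relative changes of 0.138, 0.121 and 0.121, and of 0.005, 0.024 and 0.018 with the GC trend removed. Motifs may overlap one another in a window and a match is a run of letters, not a bound site.

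**Figure D3:**
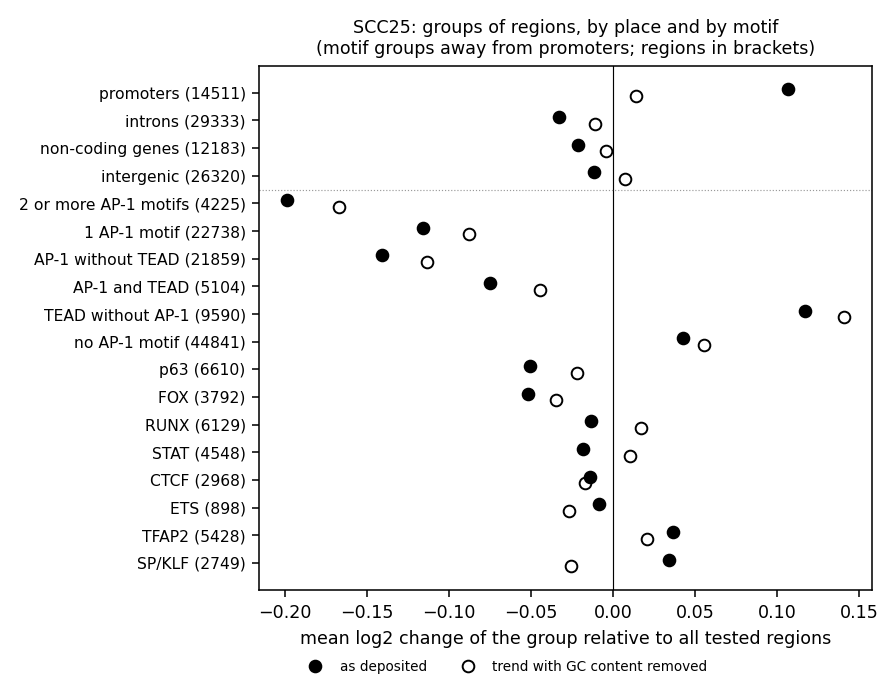
Mean log2 change of groups of tested SCC25 regions relative to all 86315, on the x axis, by place in the genome (above the dotted line) and by motif away from promoters (below it), with the number of regions in brackets. Filled points use the values as deposited and open points have each library's trend with GC content removed. Promoters move from 0.106 to 0.014 between them, while regions with 2 or more AP-1 motifs stay at -0.198 and -0.167.

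**Figure D4:**
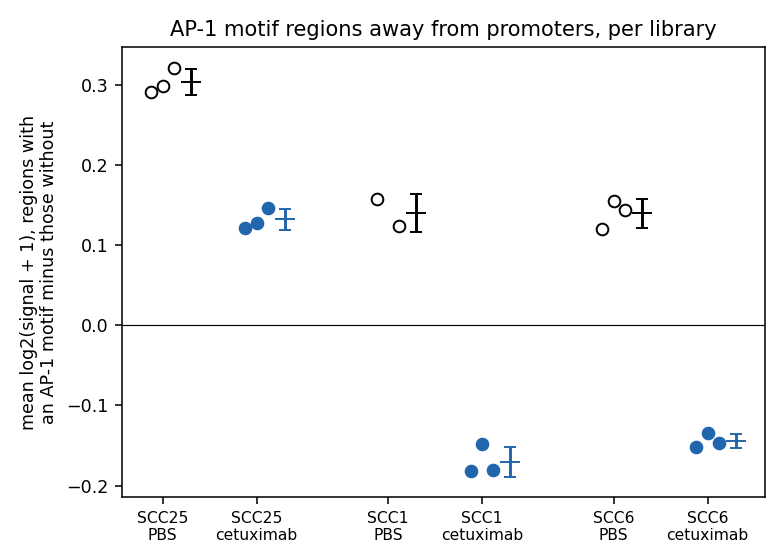
Mean log2(signal + 1) at regions with an AP-1 motif minus that at regions without, away from promoters, for each library of the 3 lines over the regions tested in SCC25. Open circles are PBS and filled circles cetuximab libraries, and bars give the mean ± SD. In SCC25 the PBS libraries lie at 0.291 to 0.321 and the cetuximab libraries at 0.121 to 0.147.

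The libraries of SCC1 and SCC6, which the SCC25 calls did not use, gave the same measure over the same regions. In SCC1 it was 0.140 ± 0.024 with PBS (SD, n = 2, another sample being not used here) and -0.170 ± 0.019 with cetuximab (n = 3), and in SCC6 0.140 ± 0.018 and -0.145 ± 0.009 (n = 3 each). The groups did not overlap in either line, and the difference between the lines was not tested. In its own fit with limma, SCC1 had 4.57% of tested regions called higher and 6.56% lower, and SCC6 16.9% higher and 10.6% lower. Of the SCC25 regions that fell, 61 of the 223 tested in SCC1 were called lower there (27.4%) and 0 higher, and 100 of 179 in SCC6 were called lower (55.9%) and 6 higher. Of those that rose, 9 of 35 were called higher in SCC1 (25.7%) and 0 lower, and 22 of 33 in SCC6 were called higher (66.7%) and 1 lower. The SCC25 calls had more signal than other regions, a median of 85.5 for those that fell against 33.8 over all, and the part of signal in these shares was not tested.

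Of the 237 regions that fell in SCC25, 33 fell in all 3 lines, and of the 35 that rose, 6 rose in all 3. The share of all tested regions called alike in the 3 lines was not computed. An AP-1 motif was in 20 of the 33 (60.6%) and in 0 of the 6. Among all SCC25 calls it was in 53.2% of those that fell and 11.4% of those that rose, and the difference was not tested. The regions near ZNF474 and in DST shown above were among the 33, with log2 changes of -0.95, -1.40 and -0.99 and of -0.70, -0.67 and -0.80 in SCC25, SCC1 and SCC6. A region near ALDH1A1, a retinal dehydrogenase, changed by -0.76, -1.02 and -1.12, and 1 near SDC1, the epithelial heparan sulphate proteoglycan syndecan-1, by -0.72, -0.92 and -0.64. Both were picked after their values were seen. The 6 that rose were linked to IL7R, TMCC3, VAC14, OR5C1, THSD7B and CPNE8. The IL7R region changed by 0.98, 1.62 and 1.91 and the TMCC3 region by 1.70, 1.54 and 2.93. At 1 of the 2 regions near F3, chr1:95018810-95019292, the lines differed in sign. The changes there were -0.85 and -1.37 in SCC25 and SCC1 and 1.28 in SCC6, each with a limma adjusted p under 0.05. The other F3 region, chr1:94992809-94994264, had the same sign in all 3 lines, with -0.40, -0.26 and -0.53 in SCC25, SCC1 and SCC6.

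A direct test of the SCC25 change against the mean change of SCC1 and SCC6, in 1 limma fit of all 17 libraries with a column in the table, called 1506 regions (1.74%). Of the 272 SCC25 calls 259 were tested in this fit, and 9 of them were among those called. The CD36 intron region rose by 1.47 in SCC25 and had log2 changes of 0.23 in SCC1 and 0.30 in SCC6 (difference 1.20, adjusted p = 0.00258), and the GJA3 region had log2 changes of 1.26, 0.01 and -0.13 in SCC25, SCC1 and SCC6 (difference 1.32, adjusted p = 0.0242). The SCC25 calls were chosen by the same SCC25 values that enter this difference, which can enlarge the SCC25 change in it. A region that misses the threshold is not shown to change alike.

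**Figure D5:**
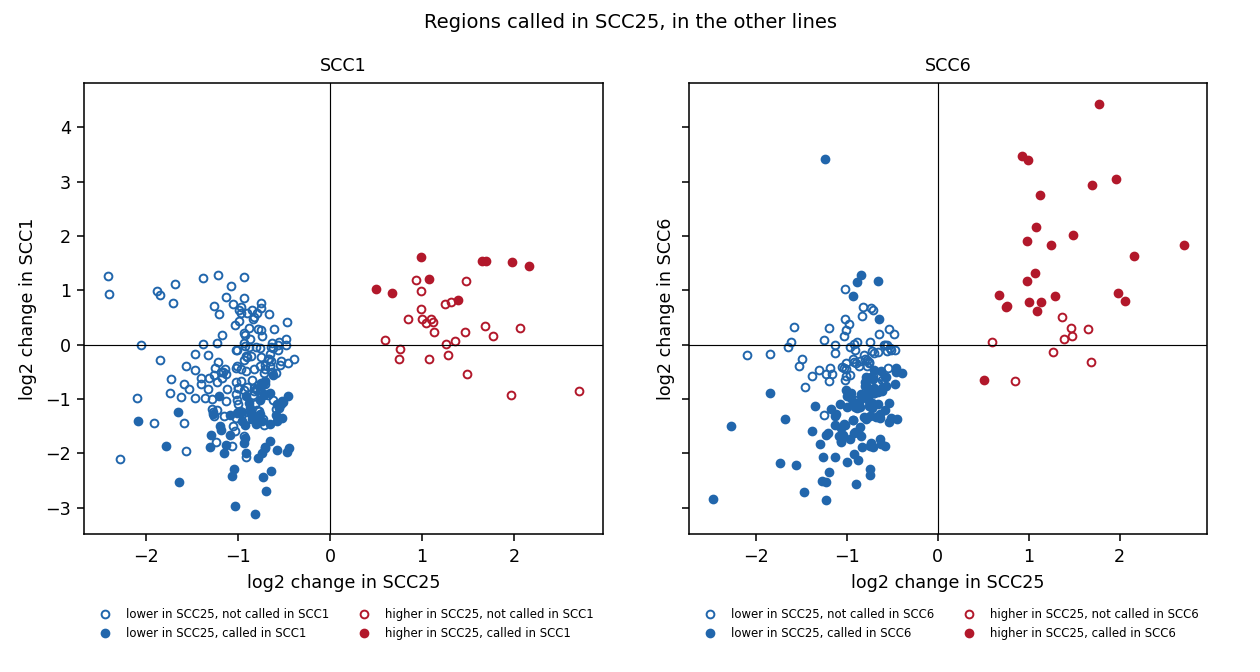
Log2 change in SCC25 (x axis) against that in SCC1 (left) and SCC6 (right) on the y axis, for regions called in SCC25 and tested in the other line. Blue points fell and red points rose in SCC25, and filled points had an adjusted p under 0.05 in the other line. Most points lie in the lower left and upper right, and 6 filled blue points and 1 filled red point in SCC6 lie on the opposite side of 0.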

How the data were processed

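ATAC-seq libraries of SCC25 were made by the authors. Per the labels and the study's methods, reads were trimmed with Trim Galore 0.5.0, aligned to hg19 with Bowtie2 2.3.2, cleaned with Picard 2.18 and SAMtools 1.9, and peaks were called per library with MACS2. The deposited table gives a signal per region and library, scaled per library by the authors, over 1 set of regions for the 3 lines. The methods name DiffBind for the differential analysis, and how the table was made is not given in the sources used here. The deposited peak lists give fold enrichment (a ratio) and −log10 p and q values, and only presence, the number of peaks and that ratio were used. Whether reads were shifted to the Tn5 cut site is not given in the sources used here. Every SCC25 value was a whole multiple of 1 step per library (100% within 0.001 reads), which gave reads per region, with 1 read the lowest value.

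Signal was analysed as log2(signal + 1) in R 4.3.3 by limma 3.58.1, with a variance trend and robust moderation, over 86315 regions, the lowest 25% by mean being left out. Changes are on that scale, which understates the change of weak regions, and calls had a Benjamini-Hochberg adjusted p under 0.05. Because the unit was a scaled signal, edgeR 4.0.16 and DESeq2 1.42.0 on the recovered reads were alternatives. Group-level values were compared over the 6 libraries by exact permutation, with 0.1 the smallest p. On simulated reads for the SCC25 comparison over 86315 regions, limma recovered 90% of 200 regions changed by a log2 of 2 with 6 false calls. The dispersion was set to 0.05 and not fitted to these libraries. The called regions had smaller median changes, -0.92 and 1.24, so this recovery does not apply to them. Genes came from GENCODE 44 lifted to GRCh37, the build of hg19. Named regions were the 12 higher and the 12 lower with the smallest adjusted p and no overlap of groups, called promoters, genes with 2 or more calls, up to 3 called regions per gene list, the promoters of the study's genes, and the 5 genes at each end of the ranking by median. Of the 12 higher regions, 1 is not reported here. Uncalled members of the gene lists, such as ERBB3, JUND, FOSL1, JUN, DUSP6, SPRY2, SPRY4, BTC, EREG and AREG, were named outside this rule. They are examples chosen with their values seen, as is the count of lower EGFR regions. Members, lists and tests were chosen with earlier results of these data known. The motif splits by number, middle base and signal bin, and the regions compared singly across the lines, were chosen after seeing the data.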

Additional observations from a re-analysis of the deposited data

Results flagged for a closer look

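At 9 of the 259 regions called in SCC25 that could be tested in all lines together, a test of the difference between lines, the SCC25 change minus the mean of the SCC1 and SCC6 changes in 1 limma fit, had an adjusted p under 0.05 (limma, Benjamini-Hochberg). Changes are log2 values in SCC25, SCC1 and SCC6. In 3 regions SCC25 rose more than the others. The CD36 intron region had changes of 1.47, 0.23 and 0.30 (difference 1.20, adjusted p = 0.00258), the GJA3 region of 1.26, 0.01 and -0.13 (difference 1.32, adjusted p = 0.0242), and a region linked to SLC16A7, a monocarboxylate transporter, of 1.68, 0.35 and -0.31 (difference 1.66, adjusted p = 0.0148). In 3 regions SCC25 fell where the others did not on average. The region linked to VPS41 had changes of -1.25, -0.43 and 3.42 (difference -2.74, adjusted p = 0.0137), that linked to ZFHX4 of -0.66, 0.56 and 1.18 (difference -1.53, adjusted p = 0.036), and that linked to STX11 of -0.56, 0.05 and -0.01 (difference -0.58, adjusted p = 0.0343). In 3 regions SCC25 fell less. The region nearest to OTOL1 had changes of -0.45, -1.90 and -1.36 (difference 1.19, adjusted p = 0.033), that nearest to ADCY8 of -0.64, -2.33 and -1.28 (difference 1.16, adjusted p = 0.00363), and that linked to ASPH of -0.58, -1.29 and -1.20 (difference 0.66, adjusted p = 0.0342). The 259 regions were chosen by the SCC25 values that also enter this difference, which can enlarge the SCC25 change in it. The regions other than CD36 and GJA3 were named after their values were seen, and their causes were not tested.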

How the results depend on the processing

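Counts of regions higher and lower, with promoters in brackets, were 35 and 237 (4 and 4) as reported. They were 55 and 97 (17 and 1) with each library centred on its median, 94 and 207 (29 and 7) with quantile normalisation, 57 and 105 (17 and 1) with cyclic loess, 106 and 13488 (7 and 1936) with scaling to background reads (outside SCC25 peaks), 53 and 370 (8 and 9) with a pseudocount of 5. They were 73 and 310 (5 and 7) with no filter, 39 and 337 (6 and 8) with the lowest 50% left out, 31 and 10 (0 and 0) with all 17 libraries in 1 fit, 116 and 711 (25 and 25) with array weights. They were 1 and 14 (0 and 0) at an adjusted p under 0.01, 377 and 591 (107 and 20) with edgeR, 101 and 164 (37 and 3) with DESeq2, 34 and 79 (8 and 1) with reads thinned to the same number, 36 and 40 (1 and 1) with the GC trend removed. A promoter window of 3 kb gave 12 lower promoters. The block with the replicate number gave 108 higher and 636 lower (23 and 18 promoters). Same-numbered libraries did not deviate together over all tested regions (correlations of -0.023, -0.003 and 0.004). These correlations give no sign of pairing, but they cannot exclude it at some regions, and the labels do not say. Leaving out 1 library gave 0 to 70 higher and 0 to 499 lower regions and 0 to 13 and 0 to 21 promoters. Of 49 named called regions, 7, 6 and 0 stayed called without PBS replicates 1, 2 and 3, and between 35 and 43 without a cetuximab replicate. All 49 kept their sign in every alternative, 49 stayed called with edgeR, 33 with thinned reads, 28 with the GC trend removed and 7 with all libraries in 1 fit. The median change of all regions, -0.083, was -0.00505 with each library centred on its median, -0.00304 with quantile normalisation, -0.00555 with cyclic loess, -0.372 with scaling to background reads (outside SCC25 peaks), 0.0307 with no filter, 0.00783 with edgeR, 0.0149 with DESeq2, 0.0030 with reads thinned to the same number, -0.0111 with the GC trend removed. The AP-1 difference ran from -0.129 to -0.286 and the promoter difference from 0.006 to 0.164. The library-level correlation of signal with GC content, 0.171 higher with cetuximab, was -0.184 with no filter, and the cause was not tested. Uncalled promoters near 0 changed sign. For TGFBR3 the log2 change was 0.0534 with DESeq2, 0.00627 with array weights, 0.0466 with each library centred on its median, 0.0368 with cyclic loess, 0.0469 with edgeR, 0.0232 with quantile normalisation and 0.1004 with reads thinned to the same number. For VIM the log2 change was 0.0493 with reads thinned to the same number and -0.457 with scaling to background reads, where it was called (adjusted p = 0.0371), as was TFAP2A (-0.414, adjusted p = 0.00942). For IGF1R the log2 change was 0.0735 with DESeq2, 0.0734 with each library centred on its median, 0.0802 with cyclic loess, 0.0488 with edgeR, 0.0697 with quantile normalisation, 0.206 with reads thinned to the same number and 0.0991 with the GC trend removed. For ERBB2 the log2 change was -0.237 with scaling to background reads (outside SCC25 peaks). For AXL the log2 change was 0.0253 with DESeq2, 0.0379 with each library centred on its median, 0.0469 with cyclic loess, 0.0146 with edgeR, 0.0337 with quantile normalisation and 0.0345 with reads thinned to the same number. For VEGFA the log2 change was -0.207 with scaling to background reads (outside SCC25 peaks). For EGFR the log2 change was -0.178 with scaling to background reads (outside SCC25 peaks). For FGFR1 the log2 change was 0.00302 with reads thinned to the same number. With 1 library left out, the log2 changes ran from -0.144 to 0.0626 for TGFBR3, from -0.177 to 0.137 for IGF1R, from -0.158 to 0.356 for ERBB2, from -0.15 to 0.0636 for AXL, from -0.0415 to 0.197 for VEGFA, from -0.287 to 0.0646 for FGFR1. Depth, 2513828 to 13408698 reads in regions per library, limits single regions, and weak ones needed a larger change to be called.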

Other observations

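Of the called regions, 9 pairs lay within 50 kb of one another, 8 of them of regions that both fell and 1 of a region that rose near TNN beside one that fell near KIAA0040. Of the 272 calls 237 fell, and how often tested regions lie that close was not computed, so the pairs are a description only. The closest pairs were 849, 1629 and 3981 bases apart, and others lay at AGO2 (7587 bases), F3 (24546), ASTN2 (25377) and PAPPA (26461). The median fold enrichment of the called peaks was 3.29 to 3.36 in the cetuximab libraries and 3.50 to 3.60 in the PBS libraries, and the groups did not overlap (exact permutation test, two-sided, p = 0.1, the smallest that 3 against 3 allows). Among markers of other cell types, leukocyte genes had 6 promoter regions with a median log2 change of -0.24, 2 of them lower at an unadjusted p under 0.05. Fibroblast and endothelium genes had 2 promoter regions with a median of 0.09, and 0 were lower at that level. Over all 14511 promoters the median was 0.02, and 519 were lower at that level.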
